A study of Mus musculus with 9 samples.

Results

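Btbd9, Glo1, Dnah8 and Glp1r lie next to each other on mouse chromosome 17, in a segment known to be present in extra copies in some inbred strains. Their RNA levels were examined in the cerebral cortex of 3 inbred strains. The genes were chosen by name, and they are 4 of the 54532 genes in the table of expression values. Each strain, C57BL6/J (B6), C3H/HeJ (C3H) and WSB/EiJ (WSB), gave the cortices of 3 males between 8 and 12 weeks old. B6 and C3H are classical laboratory strains and WSB is wild-derived. No treatment, transgene or deletion was listed for any group, and DNA copy number was not analysed here. The strains are inbred, so the mice of a strain share 1 genotype, and any strain difference is a difference between whole genomes.

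Glo1 encodes the first enzyme of the glyoxalase system, which uses glutathione to convert methylglyoxal, a reactive by-product of glycolysis, into a less reactive thioester. The second enzyme, encoded by Hagh, releases D-lactate from that thioester and gives the glutathione back. In mice, Glo1 is known for strain differences in brain expression that have been studied in relation to anxiety-like behaviour. Btbd9 encodes a BTB domain protein linked to cullin 3 ubiquitin ligases, and variants of the human gene are associated with restless legs syndrome. Dnah8 encodes a heavy chain of the dynein arms that drive the beating of sperm tails. Glp1r encodes the receptor for glucagon-like peptide, a class B G protein-coupled receptor best known in pancreatic beta cells and, in the brain, in hypothalamus and brainstem.

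The 4 genes span chr17:30215524-30936510 of GRCm38, a stretch of 721.0 kb. Btbd9 (ENSMUSG00000062202) comes first, at chr17:30215524-30576287 on the minus strand, with 11 exons in its longest transcript. Glo1 (ENSMUSG00000024026) follows after a gap of 16578 bases, at chr17:30592866-30612659 on the minus strand, with 6 exons. Dnah8 (ENSMUSG00000033826) begins 11694 bases further on, at chr17:30624354-30875264 on the plus strand, and has 93 exons. Glp1r (ENSMUSG00000024027) begins 26602 bases after Dnah8, at chr17:30901867-30936510 on the plus strand, with 13 exons. GENCODE M21 places 8 genes in the stretch, namely these 4 protein-coding genes, 2 small nuclear RNA genes, the antisense RNA 1700097N02Rik across the start of Dnah8, and the unverified transcript Gm9874 inside Btbd9 on the opposite strand.

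Glo1 and Dnah8 are transcribed away from each other, and the windows before their RefSeq starts are shown. Both genes had their highest values in C3H, as did Btbd9 and Glp1r. The RefSeq start of Dnah8 lies inside the span that GENCODE gives the gene, so its window is within that span and overlaps 1700097N02Rik. Both windows cover the 250 bases before the RefSeq transcription start on GRCm38.p6, 5′ to 3′ on the strand of the gene. Capitals mark matches, on either strand, to CCAAT (the CCAAT box) or GGGCGG (the GC box, CCGCCC when read on the other strand). RefSeq windows were found for 3 of the 4 genes.

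Glo1, chr17:30612660-30612909, minus strand: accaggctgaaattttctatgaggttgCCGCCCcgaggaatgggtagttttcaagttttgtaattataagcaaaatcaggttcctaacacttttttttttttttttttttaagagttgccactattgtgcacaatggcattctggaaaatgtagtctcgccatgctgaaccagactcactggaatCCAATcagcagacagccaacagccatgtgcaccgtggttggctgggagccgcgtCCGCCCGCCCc

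Dnah8, chr17:30626686-30626935, plus strand: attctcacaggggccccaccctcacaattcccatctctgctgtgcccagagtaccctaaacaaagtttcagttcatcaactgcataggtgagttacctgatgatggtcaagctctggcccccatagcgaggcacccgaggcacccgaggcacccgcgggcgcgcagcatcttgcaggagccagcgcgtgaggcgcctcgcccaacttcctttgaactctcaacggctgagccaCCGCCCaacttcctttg

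The Glo1 window held a CCAAT box at bases -65 to -61 from the start and GC boxes at -223 to -218, -11 to -6 and -7 to -2, the last pair overlapping. The Dnah8 window held 1 GC box, at -17 to -12. The Glp1r window held 3 GC boxes. A CCAAT box was present in 33.85% and a GC box in 32.74% of the 32851 mouse windows of the same kind, counted over the same 250 bases. The core of the antioxidant response element, TGACNNNGC, was searched on both strands as well and was found in 10.16% of all windows and in none of the windows of Glo1, Dnah8 and Glp1r. GC content was 46.4% in the Glo1 window, 59.2% in that of Dnah8 and 73.2% in that of Glp1r.

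Expression was given as FPKM, the fragments on a gene divided by its length and by a size for the library, a level that can be compared between genes. That size was not the plain total, as it ran from 0.977 (C3H replicate 1) to 1.03 (WSB replicate 3) times the reads on genes. The median ratio of a library's values to the mean over libraries was 1.009 in each of the 9 libraries, so the values were already on a common scale by that measure. Multiplied by gene length, the values were whole multiples of 1 step per library, which gave back between 16317439 and 21562429 reads on genes per library. Nothing in the labels says how the mice were related or collected, so p-values measure only the spread between these 3 mice of a strain. The summed level of 6 markers of cortical excitatory neurons ranged from 616 to 921 FPKM over the 9 libraries, and none of these markers was at 0. Other sums varied more from mouse to mouse, with choroid plexus markers between 64.6 and 763 FPKM, striatal neuron markers between 77.0 and 432 FPKM and hypothalamic neuron markers between 4.25 and 225 FPKM. In whole tissue, fewer cells of a type and less RNA per cell cannot be told apart.

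Glo1 and Btbd9 were higher in C3H than in B6, and neither was called different between WSB and B6. Glo1 RNA in C3H was 2.38 times the B6 level, and Btbd9 RNA was 1.53 times the B6 level. All 3 C3H values lay above all 3 B6 values for each of the 4 genes. Over all 20602 genes tested between these strains, 14.9% had every C3H value above every B6 value. Dnah8 and Glp1r were expressed at a small fraction of the level of Glo1, with few reads behind each value.

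**Figure D1:**
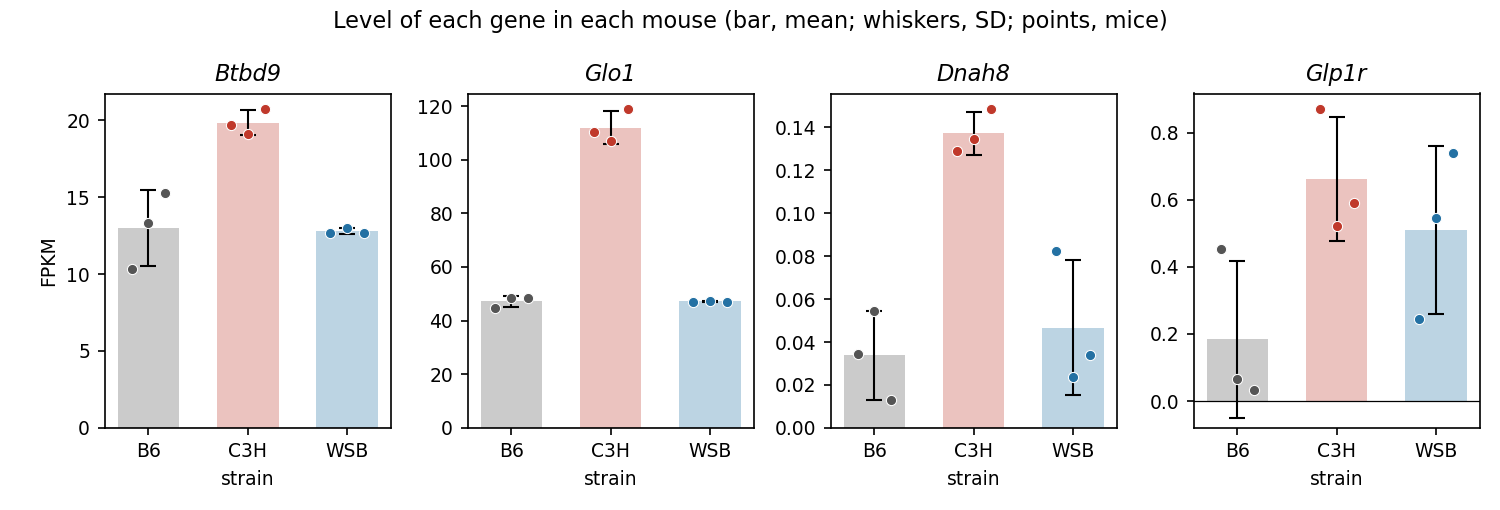
FPKM (y axis, from a separate scale for each gene) of Btbd9, Glo1, Dnah8 and Glp1r in the cortex of B6, C3H and WSB mice (x axis). Bars are means, whiskers are SDs and points are the 3 mice of each strain; the Glo1 points of C3H sit between 106.9 and 118.8 FPKM, above the 6 points of B6 and WSB, while the Glp1r points of WSB reach into those of both other strains.

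Glo1 was the most abundant of the 4 genes in every library. Its level was 44.6, 48.3 and 48.5 FPKM in the B6 mice, 110.4, 106.9 and 118.8 FPKM in the C3H mice, and 47.0, 47.4 and 47.1 FPKM in the WSB mice. The C3H mice stood apart from all others, and the WSB mice fell within the B6 range. The means were 47.2 ± 2.20 FPKM in B6, 112.0 ± 6.11 FPKM in C3H and 47.2 ± 0.185 FPKM in WSB (SD, n = 3 each), from 1513 to 4460 reads per library.

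Between C3H and B6, the log2 difference of Glo1 was 1.25 (SE 0.07), with a 95% interval for the fold change of 2.10 to 2.68 on the scale of log2(FPKM + 0.1). The adjusted p was 0.000101 in limma with Benjamini-Hochberg adjustment over all genes tested. Glo1 ranked 70 of 20602 genes by p, and 2.38% of the genes tested were called higher in C3H. Glo1 was lower in WSB than in C3H by a log2 difference of -1.25 (SE 0.07, limma adjusted p = 0.00011), where 3.13% of 20607 genes were called lower in WSB. Against B6, WSB had a log2 difference of 0.0010, its 95% interval ran from -0.14 to 0.15 and the limma adjusted p was 0.995, in a comparison in which 5.90% of 20746 genes were called in either direction. The comparisons of C3H and of WSB with B6 share the same 3 B6 mice.

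The marker sums of 2 other cell types were, like Glo1, highest in the 3 C3H mice. The sum of 6 red blood cell markers was 632 to 1010 FPKM in C3H, against 217 to 254 FPKM in B6 and 249 to 329 FPKM in WSB. Of these 6 markers, 5 were tested between C3H and B6 and 3 were called higher, Hba-a1, Hbb-bs and Alas2, the first pair encoding globin chains and the last the enzyme that starts heme synthesis in red cell precursors. The other two tested, both globin genes, were not called and spread widely in C3H, with Hbb-bt at 2.20 to 69.3 FPKM (log2 difference -1.39) and Hba-a2 at 1.37 to 82.2 FPKM (log2 difference 0.77). Slc4a1, which encodes the red cell anion exchanger, was below 0.1 FPKM on average in each strain. The sum of 6 microglia markers was 124 to 150 FPKM in C3H, against 118 to 123 FPKM in B6 and 102 to 104 FPKM in WSB, with none at 0. Of these 6 markers, 1 was called between C3H and B6, Aif1, an actin-binding protein of microglia, with a log2 difference of 0.79 (limma adjusted p = 0.00995). The others did not move together. Tmem119, C1qa and P2ry12 had log2 differences of 0.35, 0.24 and 0.07, while Cx3cr1 and Csf1r had -0.008 and -0.12, none of them called. C1qa was at 62.0 FPKM on average in B6 and 73.4 FPKM in C3H, against 4.80 and 8.35 FPKM for Aif1. The part of red blood cells and of microglia in the Glo1 and Btbd9 differences was not tested. Within C3H, replicate 3 had the highest Glo1 level and the highest sum of red blood cell markers. The astrocyte, choroid plexus, ependymal cell, interneuron, microglia, oligodendrocyte and striatal neuron sums were also highest in replicate 3. Those of cortical excitatory neuron, endothelial cell, hippocampal neuron and hypothalamic neuron markers were highest in replicate 1. Without replicate 3, the log2 difference of Glo1 between C3H and B6 was 1.20 (limma adjusted p = 0.00111).

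A processed pseudogene on another chromosome, Gm13443 at chr2:35340409-35340963, is 99.5% identical to Glo1 over 555 aligned bases, and how reads shared by both were counted is not stated, so the Glo1 values are uncertain by the reads that could go to either copy. Gm13443 held 8 reads over the 3 B6 libraries, 146 over C3H and 151 over WSB, beside 5435, 12443 and 4764 reads of Glo1. With its reads added to Glo1, a setting added once the data had been seen, the log2 difference of Glo1 was 1.26 between C3H and B6, 0.044 between WSB and B6 and -1.22 between WSB and C3H.

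Btbd9 was expressed at 10.4, 13.3 and 15.2 FPKM in B6, at 19.7, 19.1 and 20.7 FPKM in C3H, and at 12.7, 13.0 and 12.7 FPKM in WSB. Every C3H mouse exceeded every mouse of the other strains, and the WSB values lay inside the wider B6 range. The means were 13.0 ± 2.47 FPKM in B6, 19.8 ± 0.808 FPKM in C3H and 12.8 ± 0.199 FPKM in WSB (SD, n = 3 each), from 1271 to 2755 reads per library. Btbd9 was called higher in C3H than in B6, with a log2 difference of 0.63 (SE 0.14), a 95% interval for the fold change of 1.24 to 1.93 and a limma adjusted p of 0.0487.

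This call of Btbd9 stood close to the threshold of 0.05. Under the other settings run on all mice, it was kept in 7 of 12, with limma adjusted p from 0.0125 to 0.129, and when single mice were left out it was kept in 1 of 6 fits, without B6 replicate 3, with limma adjusted p from 0.0372 to 0.162. Among the 7, rescaling by median ratios divided every library by the same factor and could hardly change the call. The log2 difference stayed between 0.47 and 0.75 in all of these fits. Btbd9 was lower in WSB than in C3H by a log2 difference of -0.63 (SE 0.07, limma adjusted p = 0.00271), and this call was kept under every alternative run. The log2 difference between WSB and B6 was -0.0027, with a 95% interval from -0.32 to 0.31 and a limma adjusted p of 0.994.

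In B6 the Btbd9 level ran opposite to the sum of striatal neuron markers, which was 432, 236 and 105 FPKM in replicates 1, 2 and 3. Other sums rose in the same mouse order as Btbd9. Cortical excitatory neuron markers were at 686, 715 and 810 FPKM and interneuron markers at 540, 556 and 572 FPKM. Astrocyte markers were at 264, 275 and 300 FPKM and hippocampal neuron markers at 36.9, 51.2 and 53.1 FPKM. In C3H and WSB the striatal sum varied, from 98.1 to 264 FPKM and from 77.0 to 208 FPKM, while Btbd9 stayed within 1.08 and 1.03 times its lowest value. The part of the dissected region in the spread of Btbd9 was not tested. Gm9874, the unverified transcript inside Btbd9, had 2 reads over the B6 libraries, 13 over C3H and 0 over WSB, and was too low to be tested. Whether the counting used the strand of the reads is not stated, so reads of Btbd9 and Gm9874 could not be told apart with certainty.

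The ratio of Glo1 to Btbd9 in the same library describes how unequal the strain difference of both genes was. It was 4.31, 3.63 and 3.18 in the B6 mice, 5.60, 5.60 and 5.74 in the C3H mice, and 3.71, 3.64 and 3.72 in the WSB mice. The C3H ratios were above all others, so Glo1 differed by a larger factor than Btbd9.

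Dnah8 was near the limit of detection. Its level was 0.0345, 0.0543 and 0.0129 FPKM in B6, 0.129, 0.134 and 0.148 FPKM in C3H, and 0.0825, 0.0238 and 0.0338 FPKM in WSB. The C3H mice were again the highest, and B6 and WSB overlapped. The mean of the 6 libraries was below the minimum of 0.1 FPKM in all 3 comparisons, so Dnah8 had no test in the fit across genes. An exact permutation test over the mice, two-sided, gave p = 0.1 for C3H against B6 and for WSB against C3H, which is the smallest p that 3 against 3 mice can give, and p = 0.7 for WSB against B6.

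The reads behind these Dnah8 values were 29 in B6, 115 in C3H and 35 in WSB, summed over the 3 libraries of each strain. Scaled to library size, the ratio of reads of C3H to B6 was 4.10, with an exact binomial 95% interval of 2.71 to 6.40. The ratio of WSB to B6 was 1.37, with an interval of 0.815 to 2.33. These intervals cover counting error only and leave out the spread between mice. The antisense RNA 1700097N02Rik, which overlaps the start of Dnah8, had 0 reads in B6, 7 in C3H and 1 in WSB.

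Ependymal cells, the ciliated lining of the ventricles, were followed because they express axonemal dyneins. The sum of 6 ependymal markers was 10.7 to 15.3 FPKM in B6, 14.1 to 23.6 FPKM in C3H and 14.4 to 23.5 FPKM in WSB, with none at 0. Only Rsph1 of these 6 markers was called between C3H and B6. Without Rsph1 the sum of the other 5 had a median of 7.97 FPKM in B6, 5.68 FPKM in C3H and 10.8 FPKM in WSB, and the strains overlapped. Foxj1, the master regulator of motile cilia, had a log2 difference of -0.36 between C3H and B6 (limma adjusted p = 0.514). The part of ependymal cells in the Dnah8 levels was not tested.

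Glp1r was also low and varied between mice. It was listed at 0.453, 0.0669 and 0.0317 FPKM in B6, at 0.871, 0.523 and 0.592 FPKM in C3H, and at 0.244, 0.546 and 0.740 FPKM in WSB. One B6 mouse, replicate 1, was far above the other two, and the WSB mice overlapped both other strains. The means were 0.184 ± 0.234 FPKM in B6, 0.662 ± 0.184 FPKM in C3H and 0.510 ± 0.250 FPKM in WSB (SD, n = 3 each), from 1 to 24 reads per library.

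The log2 difference of Glp1r between C3H and B6 was 1.70 (SE 0.55), and it missed the threshold with a limma adjusted p of 0.128. Without B6 replicate 1 the difference was 2.34 and the limma adjusted p was 0.0287. For WSB against B6 the log2 difference was 1.31, with a 95% interval from -0.13 to 2.76 and a limma adjusted p of 0.287. For WSB against C3H it was -0.39, with an interval from -1.27 to 0.49 and a limma adjusted p of 0.559. The intervals are wide, and they hold both no difference and changes of more than the Btbd9 difference for WSB against either strain.

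Within B6 and within WSB, the order of the mice by Glp1r was also their order by the sum of striatal markers, which was 432, 236 and 105 FPKM in B6 and 77.0, 155 and 208 FPKM in WSB. In C3H, where the sum was 183, 98.1 and 264 FPKM, the order was not the same. The B6 order was also the reverse of that by the cortical excitatory neuron, interneuron, astrocyte and hippocampal neuron sums. The WSB order was the reverse of that by the astrocyte and hippocampal neuron sums. The hypothalamic marker sum was 4.25 to 26.1 FPKM in 8 libraries and 225 FPKM in WSB replicate 2, whose Glp1r level was the middle one of its strain. The part of the dissected region in the Glp1r levels was not tested.

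Genes on either side of the stretch were compared to see how far the difference between C3H and B6 reached. In the 1000 kb before and the 1000 kb after it, 46 genes were annotated, 37 had a read and 28 were tested between C3H and B6. Of these 28, 1 was called higher in C3H and 0 lower, and 4 had an unadjusted limma p under 0.05, beside 2.38% called higher and 24.1% at an unadjusted p under 0.05 among all genes tested. With voom weights, 1 was called. Their median log2 difference was 0.09, beside a median of -0.0038 over all genes tested. Within the stretch, 2 of the 3 genes tested were called higher in C3H.

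Zfand3, which encodes a zinc finger protein, ends 4696 bases before the stretch. It had 25.9 ± 1.45 FPKM in B6, 29.0 ± 1.46 FPKM in C3H and 24.7 ± 0.333 FPKM in WSB (SD, n = 3 each). Its log2 difference between C3H and B6 was 0.16 (SE 0.08, limma adjusted p = 0.236), and it was not called in any comparison. The next genes tested on that side, Mdga1, Gm16758, Ccdc167 and Cmtr1, had log2 differences between 0.024 and 0.13, none of them called.

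On the other side, Umodl1, 18169 bases after Glp1r, had at most 15 reads per library and was tested only between WSB and C3H, with a log2 difference of 0.31 (limma adjusted p = 0.661). Abcg1, a cholesterol exporter 121188 bases after the stretch, had a log2 difference of 0.01 between C3H and B6 (SE 0.10, limma adjusted p = 0.960). Slc37a1, Pde9a and Wdr4, further along, had log2 differences of -0.33, 0.12 and 0.19, none of them called.

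Rsph1, which encodes a part of the radial spokes of motile cilia, was the called gene. It lies 318509 bases after the stretch and rose from 4.25 ± 1.09 FPKM in B6 to 9.50 ± 1.10 FPKM in C3H (SD, n = 3 each), a log2 difference of 1.16 (SE 0.18, limma adjusted p = 0.0127), with 7.24 ± 1.37 FPKM in WSB. The call was kept in 11 of 12 other settings on all mice but in 3 of 6 fits without a mouse, and it was lost without B6 replicate 3, C3H replicate 1 or C3H replicate 3 (limma adjusted p up to 0.0659). The pseudogene Gm10045, with 0 to 9 reads per library, had a larger difference of 2.04 that was not called (limma adjusted p = 0.0632).

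**Figure D2:**
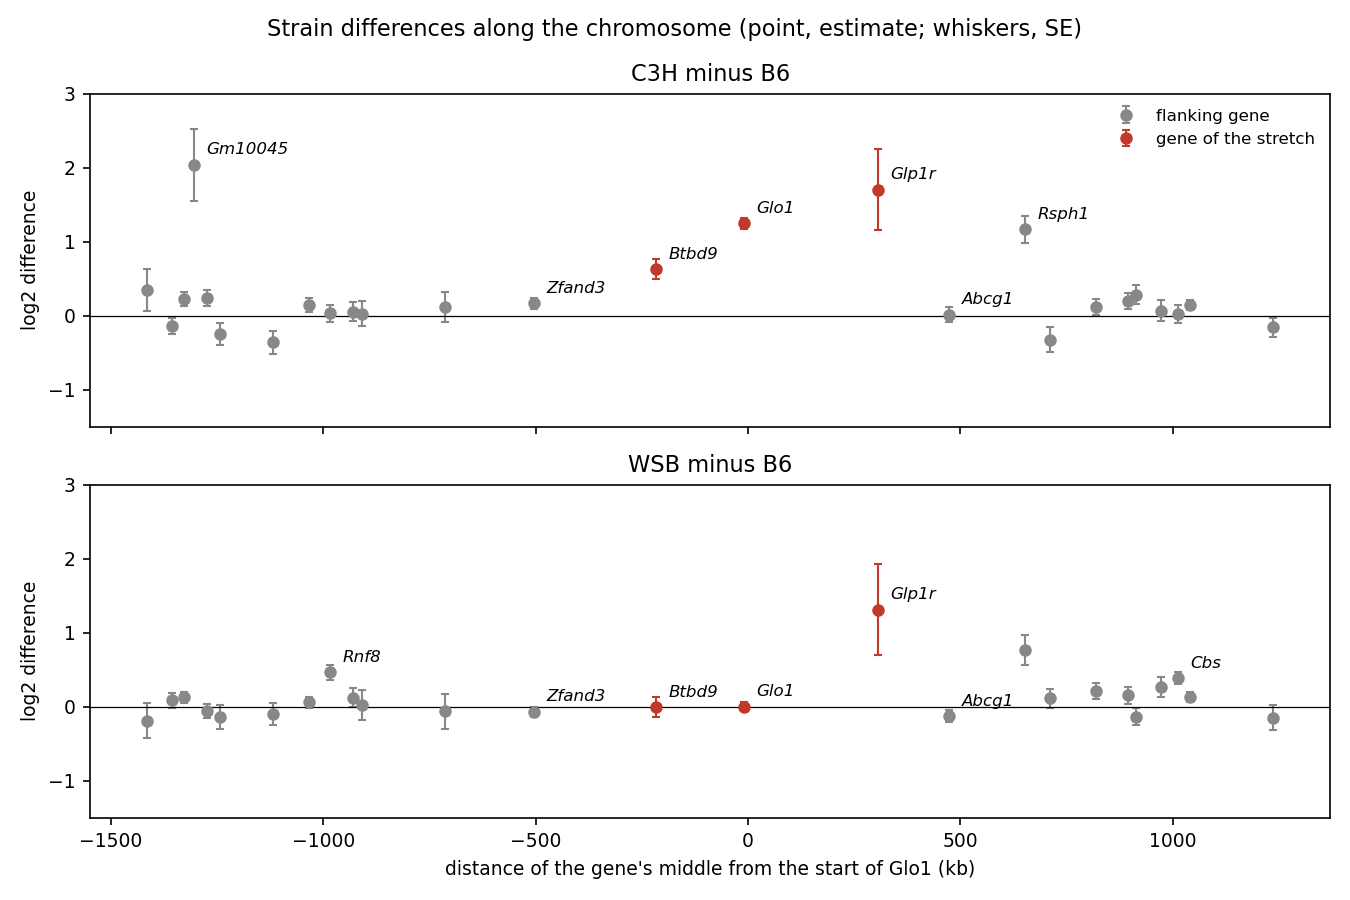
Log2 difference of C3H minus B6 (upper panel) and of WSB minus B6 (lower panel) on the y axis, against the distance in kb of each gene's middle from the start of Glo1 on the x axis, for tested genes averaging 0.5 FPKM or more in some strain. Points are limma estimates, whiskers are SEs, genes of the stretch are red and flanking genes grey. In the upper panel Btbd9, Glo1 and Glp1r lie at 0.63, 1.25 and 1.70. Zfand3 and Abcg1 on either side lie at 0.16 and 0.01, and the flanking genes Rsph1 and Gm10045 at 1.16 and 2.04. In the lower panel Btbd9 and Glo1 lie at 0 and Glp1r at 1.31.

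When WSB was compared with B6, 27 flanking genes were tested and 2 were called, both higher in WSB, beside 5.90% called in either direction among all genes. These were Rnf8, a ubiquitin ligase of the DNA damage response, with a log2 difference of 0.46 (limma adjusted p = 0.0439), and Cbs, which makes cystathionine on the way from homocysteine to cysteine, with 0.39 (limma adjusted p = 0.0394). Both calls were lost in 6 of 6 fits that left out a mouse, with limma adjusted p up to 0.136 for Rnf8 and 0.138 for Cbs. Between WSB and C3H, limma called 0 of 29 flanking genes, 9 of which had an unadjusted p under 0.05, and voom weights called 0, beside 5.74% and 23.8% of all genes called and at an unadjusted p under 0.05.

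The other genes of methylglyoxal handling were compared in the same way. A list of 25 genes held the second glyoxalase, enzymes that reduce or oxidise methylglyoxal, glutathione synthesis and the repair of glycated proteins, and all 25 were tested. Between C3H and B6, limma called 0 of 25, with 8 at an unadjusted p under 0.05 and 1 called with voom weights, beside 4.64% called in either direction and 24.1% at an unadjusted p under 0.05 among all genes. A count of 0 of 25 is near that background. The median log2 difference of the list was 0.08. Hagh was at 40.5, 42.4 and 41.5 FPKM on average in B6, C3H and WSB, and its log2 difference between C3H and B6 was 0.07 (limma adjusted p = 0.666). Park7, encoding a protein deglycase, had a difference of 0.11, and Ager, the receptor for advanced glycation end products, had -0.03, neither called.

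Between WSB and B6, limma called 2 of the 25 genes, with 11 at an unadjusted p under 0.05 and 4 called with voom weights. Among all genes, 5.90% were called in limma and 20.4% had an unadjusted p under 0.05. Aldh1a1, an aldehyde dehydrogenase that also makes retinoic acid, fell from 11.8 FPKM on average in B6 to 4.18 FPKM in WSB, a log2 difference of -1.47 (limma adjusted p = 9.21e-05). Fn3krp, a kinase that removes sugar adducts from proteins, rose by 0.37 (limma adjusted p = 0.0404). In the comparison of WSB with C3H, limma called 2 of the 25, with 9 at an unadjusted p under 0.05 and 3 called with voom weights. Among all genes, 5.74% were called in either direction and 23.8% had an unadjusted p under 0.05. Aldh1a1 was lower in WSB by -1.65 (limma adjusted p = 0.000223) and Aldh9a1, another aldehyde dehydrogenase, by -0.40 (limma adjusted p = 0.0429). The Aldh1a1 calls were kept in 6 of 6 fits without a mouse in both comparisons, while those of Fn3krp and Aldh9a1 were lost in 6 of 6.

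**Figure D3:**
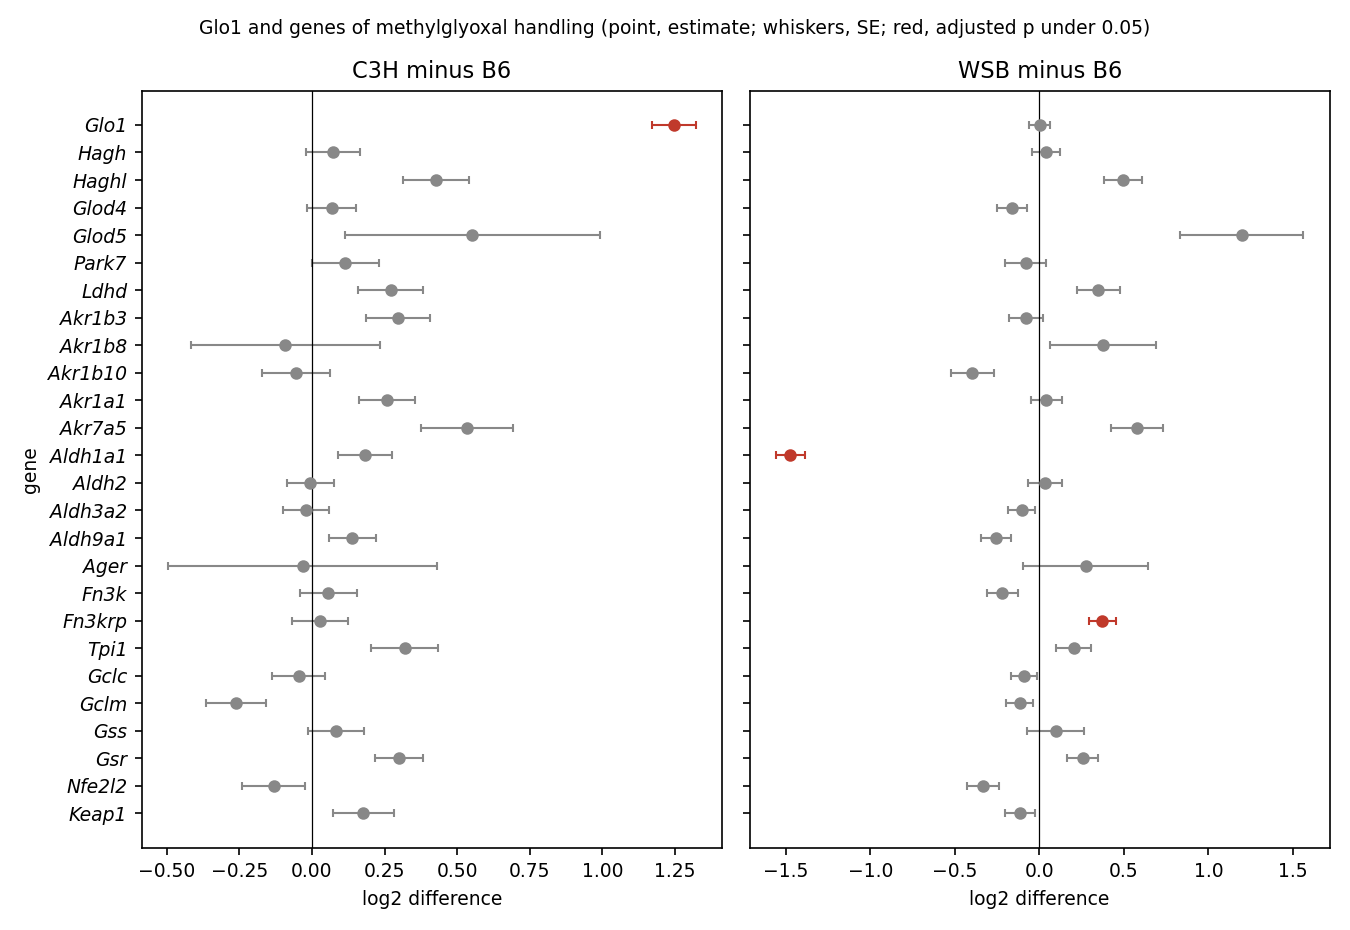
Log2 difference (x axis) of C3H minus B6 (left) and of WSB minus B6 (right) for Glo1 and the 25 listed genes of methylglyoxal handling (y axis). Points are limma estimates, whiskers are SEs and red marks an adjusted p under 0.05; Glo1 at 1.25 is the only red point on the left, and Aldh1a1 at -1.47 and Fn3krp at 0.37 are the red points on the right, and each panel has an x scale of its own.

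Among 14 genes of cullin 3 ligases and the BTBD family, the relatives of Btbd9, 13 were tested. In limma 0 of 13 were called in each comparison, with 3 at an unadjusted p under 0.05 between C3H and B6, 3 between WSB and B6 and 1 between WSB and C3H. With voom weights 1, 0 and 0 were called. Among all genes 4.64%, 5.90% and 5.74% were called and 24.1%, 20.4% and 23.8% had an unadjusted p under 0.05 in these comparisons, so the counts are near the background. Cul3, the scaffold of these ligases, was at 23.9, 19.5 and 24.1 FPKM on average in B6, C3H and WSB, and its log2 difference between C3H and B6 was -0.30 (limma adjusted p = 0.216). The median of the list between C3H and B6 was 0.06.

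Of 14 other heavy chains of axonemal dyneins, 10 passed the minimum level and 1 of the 10 was called between C3H and B6, beside 4.64% of all genes. Dnah6, an inner arm heavy chain, was the called gene, higher in C3H than in B6 at 0.523 against 0.144 FPKM on average, with a log2 difference of 1.35 (limma adjusted p = 0.0355), a call that was lost in 6 of 6 fits without a mouse. Dnah5, an outer arm heavy chain of motile cilia, had a difference of -0.30 between C3H and B6 and was not called. Between WSB and B6 and between WSB and C3H, limma called 0 of 10, with 2 and 1 at an unadjusted p under 0.05 and 2 and 1 called with voom weights, beside 5.90% and 5.74% of all genes called in limma.

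The ligands and receptors around Glp1r were mostly low in cortex. Gcg, the gene of the peptide that Glp1r binds, was at 0.0115 to 0.0882 FPKM on average in the strains and was not tested. Of the 20 genes of incretins and class B receptors, 15 were tested between C3H and B6, where limma called 0, with 2 at an unadjusted p under 0.05 and 1 called with voom weights, beside 4.64% and 24.1% of all genes called and at an unadjusted p under 0.05. In WSB against B6 limma called 0 of 15, with 4 at an unadjusted p under 0.05 and 2 called with voom weights, beside 5.90% and 20.4% of all genes. In WSB against C3H limma called 1 of 16, with 5 at an unadjusted p under 0.05 and 4 called with voom weights, beside 5.74% and 23.8% of all genes. The gene called in limma was Glp2r, the receptor of a sister peptide, which was higher in WSB at 0.896 against 0.332 FPKM on average, a log2 difference of 1.21 (limma adjusted p = 0.0207), called in 1 of 6 fits without a mouse. Gipr, the receptor of the other incretin, and Dpp4, the peptidase that cleaves both incretins, had differences of -0.0027 and -0.13 between C3H and B6, neither called.

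Over the 9 libraries and 13009 genes averaging 1 FPKM or more, the genes whose levels ran most like Glo1 were Gm13394, Klk1b22, Gm15772, Gm13328 and Cacng6, with Pearson's r of 0.996, 0.996, 0.994, 0.994 and 0.992. These genes lie on chromosomes 2, 7, 5, 2 and 7, and all were higher in C3H than in both other strains. For Btbd9 they included Eif4a1, Mier2, Dhdds and Sf3b2, with r of 0.991, 0.990, 0.967 and 0.966. For Glp1r they were Ighj1, Fbln7, Tmem53, A430103D13Rik and Gm30025, with r from 0.945 down to 0.903. These values describe 9 points in 3 strains that share their libraries, and no test was made of them.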

How the data were processed

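RNA of the cortex of 9 male mice was sequenced as paired ends. Per the labels and the study's methods, the authors trimmed reads with Cutadapt, aligned them with STAR, counted them on genes with HTSeq and deposited a table of FPKM, with 1 row per gene and 1 column per mouse. The authors ran their own tests with DESeq2. Versions and the strand setting are not given in the sources used here. No column of values was left unused. Strains were taken from the labels.

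Values times gene length were whole multiples of 1 step per library within 0.01 for 100% of values, which gave the reads and the depth. The libraries of a strain differed beyond sampling noise, with chi-square values per gene from 7.29 to 22.0.

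Strains were compared in pairs with limma 3.58.1 (R 4.3.3; lmFit, then eBayes with its trend option, two-sided). Values entered as log2(FPKM + 0.1), for genes averaging 0.1 FPKM or more in the 6 libraries compared. The Benjamini-Hochberg adjustment ran over all genes tested and calls were made at 0.05. It was tested on simulated data. The values were given as FPKM, and limma on the log scale was used in place of a count model, although reads could be recovered. Voom weights on the recovered reads were an alternative. Other alternatives were pseudocounts of 1 and 0.01, no filter or a filter of 1 FPKM, rescaling by median ratios or total reads, all strains in one fit, no trend, a replicate block, protein-coding genes only, a GC correction and leaving out each mouse. Rescaling by median ratios divided every library by the same factor, 1.009, so this setting could hardly change a call. Fold changes of low genes are understated by the pseudocount.

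Intervals of read ratios were exact binomial at 95% and cover counting error only. Of the 54532 genes, 54495 were found in GENCODE M21 on GRCm38. Similar transcripts were searched with blastn 2.17.0. The members and the gene lists were chosen with earlier results of these data known. Genes named were the members, the tested genes of the stretch, the 5 nearest tested genes on each side and the called genes of the flanks, the called and defining genes of each list, and the 5 genes most like each member, of which 1 is not reported here. Gm9874, 1700097N02Rik, Gm13443, Gm10045, the microglia markers and the red blood cell markers were added to these once their values had been seen.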

Additional observations from a re-analysis of the deposited data

Results flagged for a closer look

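The differences of C3H and of WSB from B6 were unlike for Glo1 and for Btbd9, and because both are taken against the same 3 B6 mice, the test of their difference is the comparison of WSB with C3H. For Glo1 that difference was -1.25 on the log2 scale (SE 0.07, limma adjusted p = 0.00011), and the values were lower in 3 of 3 WSB mice than in every C3H mouse. For Btbd9 it was -0.63 (SE 0.07, limma adjusted p = 0.00271), again lower in 3 of 3 WSB mice than in every C3H mouse. Over all 20607 genes tested between these strains, 14.4% had every WSB value below every C3H value.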

How the results depend on the processing

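Glo1 was called between C3H and B6 and between WSB and C3H in 13 of 13 settings run on all mice and in 6 of 6 fits without a mouse, with log2 differences from 1.20 to 1.33 and from -1.32 to -1.20, and Btbd9 was called between WSB and C3H in 12 of 12 and 6 of 6. For Btbd9 between C3H and B6 the call was lost at a pseudocount of 1 FPKM (0.59), at 0.01 FPKM (0.63), and with no filter, no trend or the replicate block (0.63 each), and without single mice the difference ran from 0.47 to 0.75. Glp1r between C3H and B6 ran from 1.30 to 2.34 without single mice, called only without B6 replicate 1. On all mice its size depended mostly on the pseudocount and the weights. It was 0.50 at a pseudocount of 1 FPKM, 2.52 at 0.01 FPKM and 2.48 with voom weights (limma adjusted p = 0.0535), none of them called. The differences between WSB and B6, near 0, changed sign for Glo1 without B6 replicate 1 (-0.038) or WSB replicate 2 (-0.0022), within -0.038 to 0.022, and for Btbd9 when rescaled to total reads (0.024) and without B6 replicate 2 (0.025), B6 replicate 3 (0.12), WSB replicate 1 (0.0034) or WSB replicate 3 (0.0041), within -0.16 to 0.12.

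The genes called between C3H and B6 numbered 956, and 1488 with voom weights, 480 with the replicate block and 498 to 2301 without single mice, the highest without C3H replicate 2. Between WSB and B6 they numbered 1224, 1541 with voom weights, 754 with the block and 651 to 825 without single mice. Between WSB and C3H they numbered 1182, 1757 with voom weights and 531 with the block. Without single mice they numbered 475 to 2002, the highest again without C3H replicate 2. Genes of the stretch called between C3H and B6 were 2, and 1 with either pseudocount, no filter, no trend or the block, and 1 to 2 without single mice. Flanking genes called between C3H and B6 were 1, 0 with the block and 0 to 1 without single mice. Between WSB and B6 they were 2, then 3 with protein-coding genes only and 1 with no filter, voom weights or the block. They were 0 with no trend and 0 to 1 without single mice. Between WSB and C3H they were 0, then 1 with all strains in one fit and 0 to 3 without single mice. The causes were not tested.

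Same-numbered mice of different strains deviated with correlations from -0.16 to 0.037 over 9 pairs, and differently numbered mice with correlations from -0.15 to 0.20. No pairing by replicate number was seen, but these values cannot show that no mice were handled together. Under the replicate block Btbd9 between C3H and B6 had an adjusted p of 0.0791 and Glo1 0.00269 in limma, and the block changed no other call of the 4 genes. Depth limits Dnah8 and Glp1r, which rest on 1 to 42 reads per library, and Dnah8 passed the filter only in a few alternatives, none of which called it.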

Other observations

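The reads of Gm13443, the near-identical pseudogene of Glo1, separated B6 from both other strains rather than C3H from the rest. They numbered 5, 1 and 2 in the B6 mice, 38, 54 and 54 in the C3H mice, and 45, 72 and 34 in the WSB mice. The log2 difference was 3.88 between C3H and B6 (limma adjusted p = 0.00201), 4.02 between WSB and B6 (limma adjusted p = 0.00295) and 0.13 between WSB and C3H (limma adjusted p = 0.805). As a share of the Glo1 reads of the same library they came to between 0.0529% and 0.323% for the B6 mice, between 0.956% and 1.35% for the C3H mice and between 2.04% and 4.54% for the WSB mice. Whether they came from the pseudogene or from Glo1 cannot be told apart in these values.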
